A study of Sorghum bicolor and Setaria italica and Zea mays with 20 samples.

Results

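The DNaseI-hypersensitive sites (DHSs) of *Z. mays* that were listed for whole leaf and for no place in bundle-sheath strands are described here. They were chosen by listing alone, as the whole-leaf DHSs on chromosomes 1 to 10 that shared not even 1 bp with a bundle-sheath DHS. Of 43539 whole-leaf DHSs on these chromosomes 8380 met this rule, which is 19.2% (95% Wilson interval 18.9% to 19.6%). The other 35159 overlapped a bundle-sheath DHS and are called shared. The number depends on the rule, since 1078 members stood among the 21722 DHSs that the top 50% of the whole-leaf list, ranked with its unplaced sequences, held on these chromosomes, and 15459 were counted when windows of 250 bp on either side of the summits were compared. The 7 DHS lists of the series hold 281868 DHSs in all. The presence or absence of a bundle-sheath DHS chose the members, so that absence is the rule and not a finding, and the values below describe what was chosen, without a test.

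A DHS is a stretch of DNA that DNaseI cuts readily because nucleosomes leave it open, as happens at promoters, enhancers, and transcribed gene starts. Within it, a bound transcription factor shields a short stretch from the enzyme, which is read as a digital genomic footprint (DGF). In a C4 leaf such as that of maize, mesophyll cells fix CO2 first and bundle-sheath cells around the veins carry out the Calvin-Benson-Bassham cycle. A whole leaf holds both cell types along with epidermis and vascular tissue, whereas a strand preparation holds the bundle sheath and the vein it surrounds.

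Whole-leaf DHSs came from 2 samples of maize seedling leaf and the bundle-sheath DHSs from 2 samples of strands, which had been freed by shearing leaves in a blender and filtering. The labels give the third leaf for all 4 samples and the study's methods both the third and the fourth leaf. The plants were untreated, at the age of 18 d, and leaves were collected when the lights had been on for 4 to 6 h, with each sample pooling leaves of many plants. Deproteinated leaf DNA cut with DNaseI served the authors for the correction of cutting bias and was left aside. The strands passed through the blender and the leaves did not, so tissue and handling cannot be told apart. Whole leaf also contains bundle sheath, which means that a DHS missing from the strand list is missing from a part of the tissue that the leaf list includes. The replicates of each tissue were combined before deposit. No value below therefore has an error between replicates, and a site absent from the bundle-sheath list fell below that list's cutoff, which is not the same as closed chromatin. Intervals on shares cover counting error over listed sites only. No annotation of the authors' maize assembly, AGPv3, was used here, so that sites are given by position and the tissue labels were not checked against mesophyll or bundle-sheath genes.

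Whole-leaf-only DHSs were weak members of their list. MACS2 gives each DHS a fold enrichment, the ratio of reads at the summit to the local background. The whole-leaf-only DHSs had a median fold enrichment of 7.59, with the middle 50% between 6.93 and 8.54, and the shared DHSs had 10.3, with the middle 50% between 8.26 and 13.0. Ranked within the whole-leaf list, the whole-leaf-only DHSs stood at a median percentile of 21.2 and the shared ones at 58.1. The lower 5 deciles of the list by fold enrichment held 7299 whole-leaf-only DHSs, 87.1% of them, and 41.2% of the shared DHSs. By the authors' −log10 p-value the separation was smaller, with medians of 19.0 in whole-leaf-only and 26.2 in shared DHSs and median percentiles of 31.2 and 55.7. Fold enrichments were tied in places, and the value 6.74 alone was given to 1130 of the 43539 whole-leaf DHSs, 420 of them whole-leaf-only.

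The share of DHSs without a bundle-sheath counterpart fell steadily with rank. In the lowest decile by fold enrichment, from 6.46 to 6.95, 2151 of 4354 whole-leaf DHSs were whole-leaf-only, or 49.4% (47.9% to 50.9%). The fifth decile held 789, or 18.1% (17.0% to 19.3%), and the ninth 69, or 1.58% (1.25% to 2.00%). In the top 10%, above a fold enrichment of 15.7, only 9 of 4354 DHSs were whole-leaf-only, which is 0.207% (0.109% to 0.392%). The strongest open sites of the maize leaf by fold enrichment were thus, with those 9 exceptions, also listed for the strands. By −log10 p-value the top 10% held 32 whole-leaf-only DHSs, or 0.735%.

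**Figure D1:**
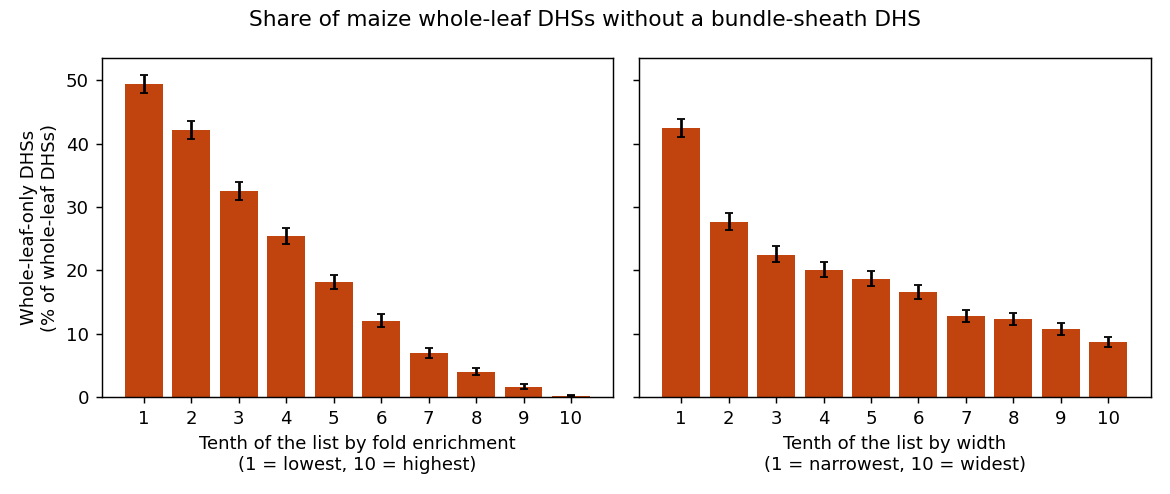
Share of maize whole-leaf DHSs that overlapped no bundle-sheath DHS (y axis, percent) in each decile of the whole-leaf list, by fold enrichment (left) and by width (right). Bars are shares with 95% Wilson intervals, and the left bars run from 49.4% in the lowest decile to 0.207% in the highest, the right ones from 42.5% in the narrowest to 8.68% in the widest.

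The 10 strongest members by fold enrichment were spread over 7 chromosomes. The first lay at chr1:168090214-168091237 (AGPv3, as all positions here), with a fold enrichment of 19.3, at a percentile of 96.4. It held 2 footprints, centred 25.5 and 297.5 bp downstream of its summit in the direction of increasing coordinates. Its nearest bundle-sheath DHS lay 147824 bp away and its nearest shared DHS 164789 bp away, but another whole-leaf-only DHS lay much closer, just to its left. The next, at chr10:100868742-100869988 and at chr7:132587714-132589134, had the same fold enrichment of 18.0, and held 2 footprints and 1. The chromosome 10 site had a bundle-sheath DHS only 270 bp away, whereas the chromosome 7 site was 3628 bp from the closest.

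Of the remaining sites in this group, 4 held no footprint. They lay at chr2:6102470-6103147 with a fold enrichment of 17.5, at chr7:44738090-44738548 with 17.1, at chr6:76159934-76160355 with 16.6, and at chr5:45616341-45617155 with 15.7. All 4 were narrow, from 422 to 815 bp. The 3 others held 2 footprints each and lay at chr4:120686568-120687885, at chr4:19012824-19013982, and at chr2:153846468-153847397, with fold enrichments of 16.9, 15.8, and 15.7. The chromosome 4 site at 120686568 had the highest −log10 p-value of the 10, at 53.2, below the maximum of 63.8 over all members. Distances of the 10 to the nearest bundle-sheath DHS ran from 270 to 147824 bp.

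Whole-leaf-only DHSs were narrower than shared ones. Their median width was 1261.5 bp (95% interval of the median 1241 to 1285), compared with 1945 bp (1926 to 1963) for shared DHSs. The middle 50% of the widths lay between 752 and 2080 bp in whole-leaf-only and between 1205 and 3083 bp in shared DHSs. Under 1 kb were 3164 of the whole-leaf-only DHSs, or 37.8%, and 16.9% of the shared. Over 5 kb were 211 whole-leaf-only DHSs, or 2.52%, and 6.80% of the shared. Together the whole-leaf-only DHSs covered 13.6 Mb and the shared ones 82.3 Mb. Their summits lay in the middle, at a median of 50.5% of the width in whole-leaf-only and 49.4% in shared DHSs.

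The widest members were broad without being strong. The DHS at chr2:131370324-131382193 was 11870 bp wide, with a fold enrichment of 7.62 and no footprint. The DHS at chr1:21982030-21993842, 11813 bp wide, had a fold enrichment of 7.83 and 6 footprints. Its footprints sat together near its left end, at -10219.5 to -8991.5 bp from the summit at the other end. The third, at chr4:177901640-177913285, was 11646 bp wide, with a fold enrichment of 7.20 and no footprint.

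Width and strength each went with the share of whole-leaf-only DHSs when the other was held within a decile. Among the narrowest 10% of whole-leaf DHSs, 59.8% were whole-leaf-only in the lowest decile of fold enrichment and 2.76% in the highest. Among the widest 10%, the shares were 46.3% in the lowest decile and 0 of 421 in the highest. Within the lowest decile of fold enrichment, width made less difference, since the shares over the 10 width deciles stayed between 41.8% and 59.8%. Within the sixth decile of fold enrichment they were 33.5% in the narrowest 10% and 4.88% in the widest. The widest DHSs offer more bases in which an overlap of 1 bp can fall, so width enters the rule itself.

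By the 1-bp rule, whole-leaf-only DHSs lay at a similar median distance from the nearest shared DHS as shared DHSs lay from each other, and this depended on the rule. The median distance, edge to edge, was 7750 bp (7304 to 8305) for whole-leaf-only DHSs and 7503 bp (7259 to 7842) for shared ones. The close range differed, since 1053 whole-leaf-only DHSs, 12.6% (11.9% to 13.3%), had a shared DHS within 500 bp, compared with 16.7% (16.3% to 17.1%) of shared DHSs. Bundle-sheath DHSs that overlapped a whole-leaf DHS had a median width of 2000 bp. Such a DHS can also touch a close neighbour and make it shared. The rule itself can therefore thin the members at close range, and its part was not tested. Within 10 kb the shares were 54.3% (53.2% to 55.3%) and 53.7% (53.2% to 54.2%), and within 100 kb 96.8% and 96.7%. The smallest distance was 165 bp in either class, and no 2 DHSs of the list lay closer. When a bundle-sheath DHS within 500 bp also made a DHS shared, the medians were 10843 bp for whole-leaf-only and 5887.5 bp for shared DHSs. That setting moves members close to a bundle-sheath DHS into the shared class, so it favours this direction by construction. In the top 30000 of each list the medians were 25486 and 27735 bp, in the reverse order.

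**Figure D2:**
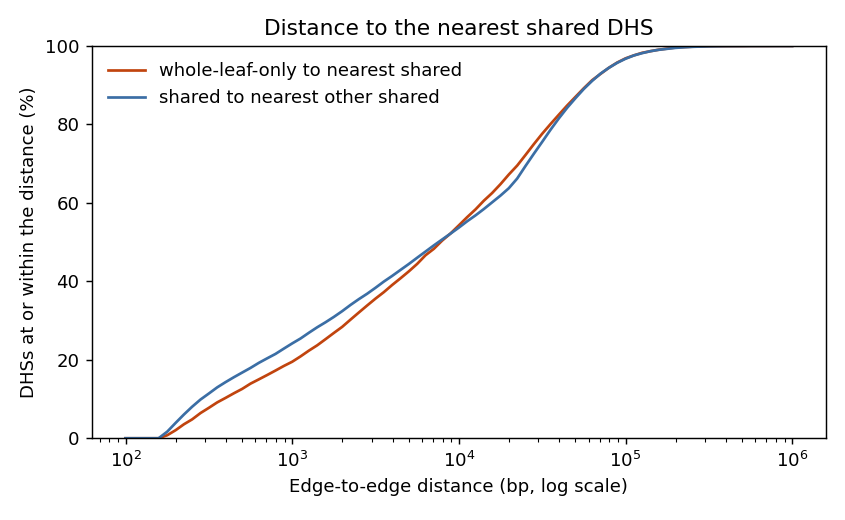
Percentage of DHSs (y axis) that had a shared DHS at or within a given edge-to-edge distance (x axis, bp, log scale), for whole-leaf-only DHSs and for shared DHSs to the nearest other shared one. The whole-leaf-only curve runs below the shared curve under 5 kb, at 19.5% against 24.2% at 1 kb, and the curves meet near 10 kb. The rule itself can thin whole-leaf-only DHSs close to a shared one.

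The members next to a shared DHS were less often footprinted than those farther away, up to 100 kb. Of the 1053 within 500 bp of a shared DHS, 23.5% (21.0% to 26.1%) held a whole-leaf footprint, with a median width of 1093 bp. Between 10 and 100 kb there were 3567 members, of which 37.8% (36.2% to 39.4%) held one, with a median width of 1394 bp. Beyond 100 kb stood 266 members, 29.3% of them (24.2% to 35.1%) with a footprint. Shared DHSs showed 58.2% within 500 bp and 63.1% between 10 and 100 kb. Width differed between these distance classes of the members, and its part in the shares was not tested.

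The 3 members farthest from a shared DHS were narrow, with fold enrichments near the members' median of 7.59. The farthest from any shared DHS lay at chr8:30861021-30861428, 762217 bp away, and was 408 bp wide with a fold enrichment of 7.64. It was followed by a DHS at chr4:164760692-164760999, 520019 bp away with a fold enrichment of 7.19, and by one at chr6:77840730-77841104, 508612 bp away with 8.09. None of these 3 held a footprint. The chromosome 6 site had a bundle-sheath DHS 164392 bp away, while for the other two the nearest bundle-sheath DHS lay 762048 and 520032 bp away.

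Some members bordered on open chromatin of the strands without touching it. A bundle-sheath DHS lay within 500 bp of 1199 members, 14.3% of them, and within 1 kb of 1934, or 23.1%. For 983 of the 1199 the bundle-sheath DHS was one that overlapped another whole-leaf DHS, and for 216 it was listed only for the bundle sheath. At the threshold itself, the smallest gaps to a bundle-sheath DHS were 12, 25, and 47 bp, for members at chr3:25127902-25129196, at chr5:179589542-179592483, and at chr3:138802936-138805325, whose fold enrichments were 8.39, 10.8, and 7.02. On the other side, the shared DHSs with the least overlap shared 30, 36, and 39 bp, at chr4:18233146-18234149, at chr5:8557169-8558946, and at chr4:150603612-150605026, with fold enrichments of 7.52, 6.95, and 6.67.

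Footprints were found in fewer whole-leaf-only than shared DHSs. A DGF is a call of the Wellington algorithm on the pooled whole-leaf reads, 11 to 25 bp long, with a score that is more negative for a stronger footprint. Of the 8380 whole-leaf-only DHSs, 2708 overlapped at least 1 whole-leaf DGF, which is 32.3% (31.3% to 33.3%), while 61.3% (60.8% to 61.9%) of shared DHSs did and 55.8% of all whole-leaf DHSs. The whole-leaf-only DHSs held 7203 DGFs and the shared ones 70527, or 0.528 and 0.856 DGFs per kb. Of the 2708, 745 held a single DGF, and 341 whole-leaf-only DHSs, 4.07%, held 5 or more, compared with 13.7% of shared DHSs. The maximum was 13 in a whole-leaf-only DHS and 17 in a shared one. In the top 30000 of each list the shares with a DGF were 60.2% and 74.4%.

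The DGFs themselves were alike in score and length. The median Wellington score was -9.30 in whole-leaf-only DHSs, with the middle 50% between -11.4 and -7.76, and -9.12 in shared DHSs, with the middle 50% between -11.1 and -7.55. The median length was 25 bp in either class, and 64.1% of DGFs in whole-leaf-only DHSs and 64.4% in shared DHSs had this longest length. No bundle-sheath DGF lay in any whole-leaf-only DHS (0 of 164252), as the rule requires, because every bundle-sheath DGF lay in a bundle-sheath DHS.

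By fold enrichment, the gap in footprints was small among weak DHSs and wide among strong ones. In the lowest decile of fold enrichment 15.9% of whole-leaf-only DHSs (14.4% to 17.5%) and 12.1% of shared DHSs (10.8% to 13.5%) held a DGF. In the fourth decile the shares were 41.2% and 41.7%, with overlapping intervals. From the sixth decile upward the whole-leaf-only DHSs fell behind, at 52.7% (48.4% to 56.9%) against 63.1% (61.6% to 64.6%), and in the eighth at 54.6% (47.2% to 61.8%) against 78.0% (76.7% to 79.2%). The top 10% had 6 of 9 whole-leaf-only DHSs with a DGF, too few to place beside the 93.3% of shared ones. By −log10 p-value the pattern differed, with 28.2% of whole-leaf-only and 40.4% of shared DHSs in the fourth decile. In the eighth decile by −log10 p-value the shares were 86.6% and 88.2%.

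**Figure D3:**
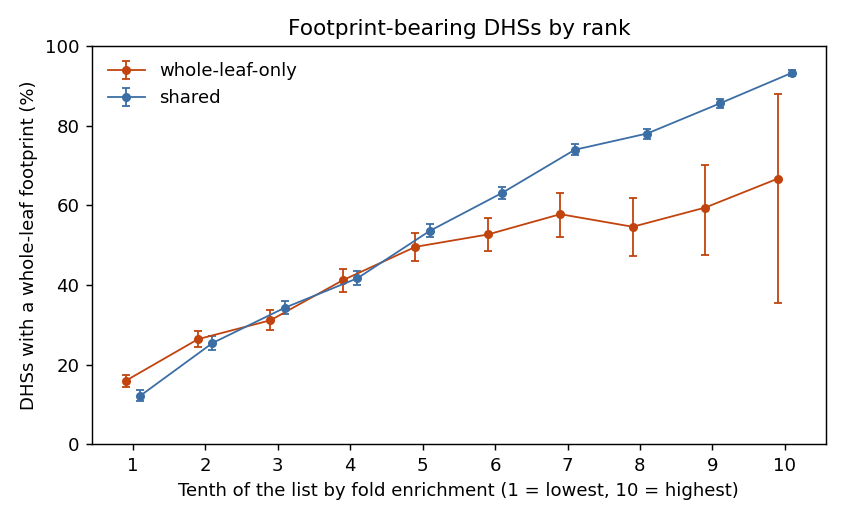
Percentage of DHSs that held at least 1 whole-leaf DGF (y axis) in each decile of the whole-leaf list by fold enrichment (x axis), for whole-leaf-only and shared DHSs, with 95% Wilson intervals. The points lie close together in the lower 5 deciles and part above them, reaching 54.6% in whole-leaf-only against 78.0% in shared DHSs in the eighth.

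When the shared DHSs were weighted to the width and fold enrichment of the whole-leaf-only DHSs, in deciles of both, 28.5% of them held a DGF, below the 32.3% of the whole-leaf-only DHSs. Weighted by fold enrichment alone the shared DHSs came to 34.1%, and by width alone to 51.1%. With the −log10 p-value in place of fold enrichment the weighted shared DHSs came to 37.6%, above the whole-leaf-only DHSs, so which class held more footprints at equal width and strength depended on the measure of strength. Weighted in the other direction, the shares by width and fold enrichment were about level. With the whole-leaf-only DHSs weighted to the shared ones by width and fold enrichment, 57.6% of whole-leaf-only DHSs held a DGF, against 57.9% of the shared DHSs in the same classes, which hold 90.7% of all shared DHSs. By width and −log10 p-value the shares were 56.3% and 61.3%. These weighted shares have no interval, and some classes held few members. In the widest decile and the ninth decile of fold enrichment, 1 of 616 DHSs was whole-leaf-only. By deciles of −log10 p-value the whole-leaf-only shares were lower from the lowest decile, at 2.37% against 5.51%, up to the seventh, at 71.0% against 82.1%, and about level in the ninth, at 93.1% against 93.1%. The weightings by p-value and the shared shares within the same classes were chosen after the data had been seen.

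Wider members more often held a DGF. The share was 10.2% (8.34% to 12.3%) in the 886 whole-leaf-only DHSs under 500 bp, 34.6% (32.9% to 36.3%) in the 2981 between 1 and 2 kb, and 59.8% (55.3% to 64.1%) in the 475 of 4 kb or more. Shared DHSs of the same widths reached 17.3%, 56.2%, and 85.1%. The whole-leaf-only DHSs with a DGF had a median width of 1735.5 bp and those without one of 1070 bp, with median fold enrichments of 8.20 and 7.29.

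Footprints gathered at the summits of whole-leaf-only DHSs as they did at those of shared ones, at a lower density. Within 100 bp of the summit the whole-leaf-only DHSs held 1.32 DGFs per kb and the shared ones 2.39. Between 900 and 1000 bp the densities were 0.321 and 0.486. The median DGF lay 202.5 bp from the summit in whole-leaf-only and 299.5 bp in shared DHSs, and 30.6% and 23.8% lay within 100 bp. For DHSs of 1 to 2 kb the medians were 151.5 and 163.5 bp, a smaller gap.

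**Figure D4:**
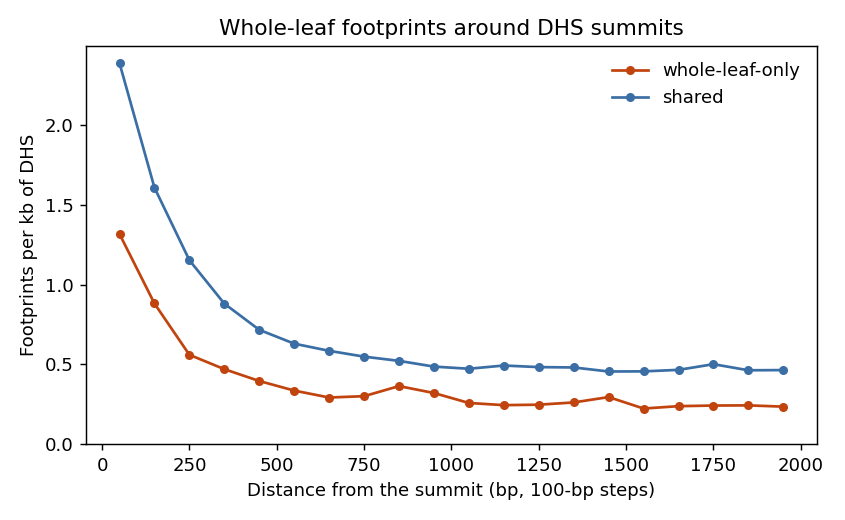
Whole-leaf DGFs per kb of DHS (y axis) against the distance of the DGF's centre from the DHS summit (x axis, steps of 100 bp), for whole-leaf-only and shared DHSs. Either curve is highest at the summit, 1.32 DGFs per kb in whole-leaf-only and 2.39 in shared DHSs, and the whole-leaf-only curve stays lower up to 2000 bp.

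The members with the most footprints were broad sites of modest fold enrichment. The maximum of 13 was reached at chr9:107436741-107443616, with a fold enrichment of 7.80, and at chr8:133595716-133602625, with 6.59, at a percentile of 1.91. Their −log10 p-values, 38.8 and 32.2, were well above the median of 19.0. In the chromosome 9 site all 13 DGFs lay to the right of the summit, from 89.5 to 2719.5 bp away, and scored between -14.5 and -10.4. In the chromosome 8 site they lay on either side, from -6245.5 to 369.5 bp relative to the summit. The DHS at chr3:151664715-151673481 held 12 DGFs, of which the strongest, at -16.3, was centred 10.5 bp from the summit.

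The strongest single footprints were found elsewhere. The lowest Wellington score in any member, -35.9, belonged to a DGF at chr3:10075108-10075132, inside the DHS from 10074659 to 10075729, whose fold enrichment was 9.03. It was followed by one at chr5:60808029-60808053, at -30.6, centred 11.5 bp from the summit of the DHS from 60807419 to 60808703. The third was at chr6:147404869-147404893, at -29.2, centred at -14.5 bp from the summit of the DHS from 147401377 to 147405461. In each of these DHSs the next DGF to the right was weaker, with scores of -17.0, -15.3, and -13.7.

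Not every whole-leaf footprint lay in a listed DHS. Of 79378 whole-leaf DGFs on the numbered chromosomes 1648, or 2.08%, lay outside every listed whole-leaf DHS, and 647 of these lay in a bundle-sheath DHS. DGF names began at 32407 although 43868 whole-leaf DHSs are listed, while bundle-sheath DGF names began at 48889, 1 above the 48888 listed DHSs. How far this affected the footprint shares was not tested.

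Whole-leaf-only DHSs were concentrated toward chromosome ends, more than shared ones were. They numbered 2.59 per Mb in the middle 20% of chromosome length and 5.56 per Mb in the outer 40%, a ratio of middle to outer of 0.465 (0.435 to 0.497). Shared DHSs had 12.7 and 20.4 per Mb and a ratio of 0.620 (0.601 to 0.640). The ratio was lower for whole-leaf-only than for shared DHSs on 10 of 10 chromosomes. DHSs found only in the bundle sheath were spread differently, with 6.76 per Mb in the middle 20% and 6.33 toward the ends, a ratio of 1.07 (1.02 to 1.12). In the top 30000 of each list that ratio was 0.957 (0.900 to 1.02), so its side of 1 depended on the cutoff, and the whole-leaf-only ratio was 0.486. Their density was lower in the middle on 3 of 10 chromosomes, and their ratio was above that of the whole-leaf-only DHSs on 10 of 10.

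The whole-leaf-only share of whole-leaf DHSs followed the same course, at 17.0% (16.1% to 17.9%) in the middle 20% and 21.4% (20.9% to 22.0%) in the outer 40%, and it was lower in the middle on 10 of 10 chromosomes. From one end of the chromosome coordinates to the other the share was 21.5% in the first 10% of length, 15.3% in the fourth, and 24.2% in the last. Whole-leaf DHSs near the ends also had lower fold enrichments, with a median of 8.99 in the last 10% and 10.3 in the fifth. With equal weight to each decile of fold enrichment, the shares were 20.2%, 17.2%, and 21.5% in the same places as before. Among DHSs in the lower 5 deciles, 32.5% were whole-leaf-only in the middle 20% and 35.5% in the outer 40%, and in the upper 5 deciles 4.34% (3.71% to 5.07%) and 5.33% (4.91% to 5.79%).

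**Figure D5:**
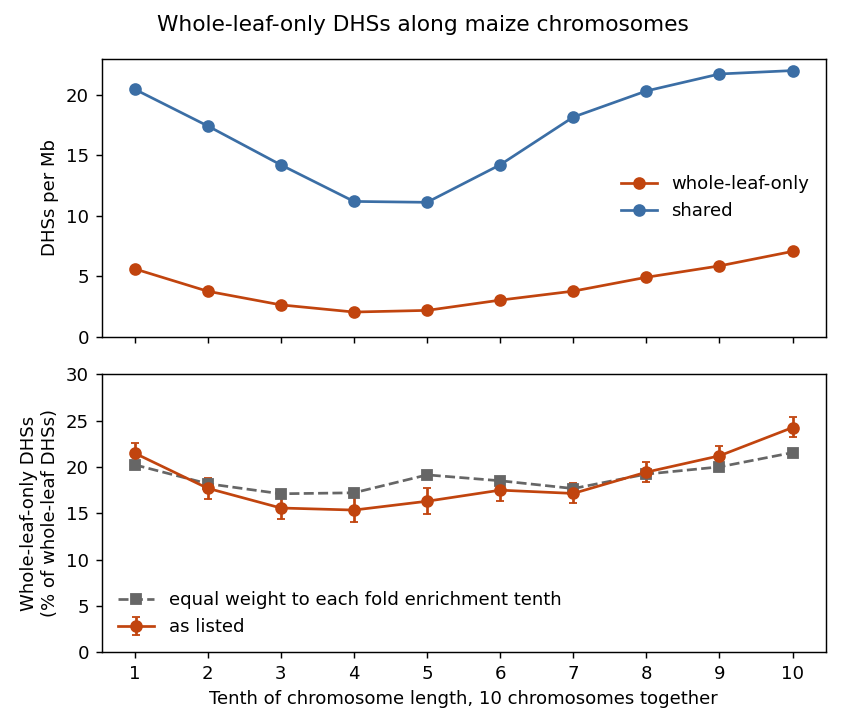
Density of whole-leaf-only and shared DHSs (top, DHSs per Mb) and share of whole-leaf-only DHSs (bottom, percent with 95% Wilson intervals) in each 10% of chromosome length, the 10 maize chromosomes together. The bottom panel shows the share as listed, 15.3% at its lowest and 24.2% in the last part, and with equal weight to each decile of fold enrichment, where it runs from 17.1% to 21.5%.

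Members near chromosome ends were wider and more often footprinted. In the last 10% of chromosome length 40.2% of whole-leaf-only DHSs held a DGF and their median width was 1420 bp, whereas in the fifth 10% of length 17.8% did, with a median width of 970 bp. Shared DHSs changed less along the chromosomes, with 65.1% and 58.2% holding a DGF and median widths of 2050 and 1681.5 bp in the same places.

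All 10 chromosomes carried whole-leaf-only DHSs at similar rates. Their number ran from 593 on chromosome 10 to 1264 on chromosome 1. Their share ran from 18.3% (17.1% to 19.7%) on chromosome 9 to 21.4% (20.3% to 22.5%) on chromosome 2, whose interval stood above those of chromosomes 1, 4, 5, 7, 8, and 9. The share of members with a DGF ran from 27.3% (24.5% to 30.3%) on chromosome 4 to 37.1% (33.4% to 41.0%) on chromosome 9. The middle-to-outer ratio was lowest on chromosome 5, at 0.242, and highest on chromosome 6, at 0.798.

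Local crowding was moderate. Of 2063 bins of 1 Mb, 1918 held at least 1 member, and the fullest held 16, at chr5:208000001-209000000, where 46 whole-leaf DHSs were listed. Bins with 15 members each followed at chr10:130000001-131000000 and at chr3:217000001-218000000. Among bins with 20 or more whole-leaf DHSs the highest share was 45.2% (29.2% to 62.2%), or 14 of 31, at chr7:167000001-168000000. It was followed by chr5:3000001-4000000, with 14 of 32, and chr3:209000001-210000000, with 13 of 30. Their intervals overlap widely, and these bins were picked as the extremes of 1191.

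Neighbouring whole-leaf DHSs were somewhat alike. The DHS that followed a whole-leaf-only DHS along the chromosome was itself whole-leaf-only in 24.0% of cases (23.1% to 24.9%), and the one that followed a shared DHS in 18.1% (17.7% to 18.5%). A single bundle-sheath DHS can overlap neighbouring whole-leaf DHSs and make them all shared, so the rule enters this likeness. Singly between shared DHSs stood 4872 members, 58.1%. What share a random order of the list would leave single was not computed. Runs of 2 numbered 1114 and runs of 3 numbered 287. The longest runs had 7 members in a row. One stretched over 313.6 kb, at chr2:37077082-37390644, and held 16 DGFs in 4 of its members, with fold enrichments between 6.55 and 9.77. The other stretched over 516.7 kb, at chr5:153416967-153933681, and held 5 DGFs in 2 of its members, with fold enrichments between 6.74 and 10.8.

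The same rule was applied to the lists most like these. Bundle-sheath-only DHSs of *Z. mays* numbered 13319 of 48547, or 27.4% (27.0% to 27.8%). They were also narrower than their shared counterparts, with medians of 1083 and 2000 bp, and 39.6% of them held a bundle-sheath DGF compared with 83.4% of the shared. In *S. bicolor* 9915 of 38336 whole-leaf DHSs on numbered chromosomes were whole-leaf-only (25.9%), with medians of 937 and 1445 bp, and in *S. italica* 8254 of 40003 (20.6%), with medians of 741.5 and 1075 bp. The ratio of the medians was 0.649 for *Z. mays*, 0.648 for *S. bicolor*, and 0.690 for *S. italica*, and the median percentile of the whole-leaf-only DHSs by fold enrichment was 21.2, 24.1, and 22.4. Footprint shares differed between the species. Of the whole-leaf-only DHSs of *S. bicolor* 92.3% (91.8% to 92.8%) held a whole-leaf DGF, and of those of *S. italica* 90.5% (89.8% to 91.1%), differences from the shared DHSs of -3.44 and -3.14 percentage points, whereas in *Z. mays* the difference was -29.0 points. No test of these differences between species was made. Per kb, whole-leaf-only DHSs held more DGFs than shared ones in *S. bicolor* (2.49 and 2.15) and *S. italica* (2.73 and 2.46), and fewer in *Z. mays* (0.528 and 0.856). By the study's account, footprint calling fell short of saturation in maize but came near it in the other species, and a maize library was of low complexity. The part of these in the footprint shares was not tested here. Assemblies, depth, and samples differ between the species, and whole-leaf samples number 2 in *Z. mays* and 3 in each of the others.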

How the data were processed

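Maize reads had been mapped by the authors with Bowtie2 to Zmays_284_AGPv3 and filtered with SAMtools for a mapping quality of at least 42, and DHSs were called with MACS2, with the irreproducible discovery rate setting their number. B73 RefGen_v3 is the build in the processing notes, and tool versions are not given in the sources used here. For each DHS the deposited lists give a fold enrichment (a ratio), a −log10 p-value, and a score that is the −log10 p-value times 10 cut to a whole number, all from pooled replicates. The deposited DGF lists give a Wellington score. The lists carry no read depth, so no precision was computed from it. The authors describe maize footprint calling as short of saturation and a maize library as of low complexity.

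Lists were intersected at 1 bp or more. Shares have 95% Wilson intervals and medians exact binomial ones, and both are too narrow where neighbouring sites are not independent. Deciles were set over the 43539 whole-leaf DHSs, with chromosome length taken as the largest listed position. The overlap code was tested on simulated data, and BEDTools 2.31.1 gave the same 8380 members. Python 3.11.15, NumPy 2.4.6, pandas 2.3.3, SciPy 1.17.1, and matplotlib 3.10.9 were used. Members and measures were chosen with earlier results of these data known. Regions named are the 10 strongest by fold enrichment and the 3 widest, most footprinted, most isolated, and most strongly footprinted. Also named are the longest runs, the extreme bins, and the 3 sites on either side of the threshold. Alternatives concerned the overlap, list cutoffs, footprint definition, and zones. Lists of differential DGFs, which hold the authors' own comparison, were not used, and 0 columns of other samples were left out.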

Additional observations from a re-analysis of the deposited data

How the results depend on the processing

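The contrasts of width, rank, footprint share, and chromosome position kept their direction under 3 definitions of the members, which were under 50% of the DHS covered, a bundle-sheath DHS within 500 bp counting as shared, and the top 30000 of each list. Distance did not, since whole-leaf-only DHSs lay farther from a shared DHS than shared ones did under the 500-bp rule (10843 and 5887.5 bp) and nearer in the top 30000 (25486 and 27735 bp). The 500-bp rule favours its direction by construction, because it moves members close to a bundle-sheath DHS into the shared class. The number of members was within 1.5 times of 8380 except in the top 50% of the whole-leaf list, with 1078 of them (4.96%), and with windows of 250 bp on either side of the summits, with 15459 (35.5%). With the 50% rule the median width was 1335.5 bp, the distance 8311 bp, and the footprint share 34.4%. With the 500-bp rule the width was 1288 bp and the footprint share 33.6%. In the top 30000 the width was 1600 bp, the median percentile 26.0, and the footprint share 60.2%, with 74.4% in shared DHSs. By −log10 p-value the median percentile was 31.2, and from midpoint to midpoint the distance was 9942 bp. The stronger 50% of the DGFs gave a footprint share of 22.6%. Weighting the members to the shared DHSs' width and fold enrichment gave 57.6%, with 57.9% in the 90.7% of shared DHSs it covered, and weighting to width and −log10 p-value, chosen after the data had been seen, gave 56.3%, with 61.3% in shared DHSs. With a middle of 40% and outer parts of 20% the density ratio was 0.433. For bundle-sheath-only DHSs, the top 30000 gave a ratio of 0.957 (0.900 to 1.02), also chosen after the data had been seen, where the full lists gave 1.07. Apart from what the 500-bp rule itself moves, the causes of these shifts were not tested.

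No paired analysis was possible because the deposited lists combine the replicates, and for the same reason no replicate was left out. The lists carry no depth. By the study's account maize footprints were short of saturation, so a DHS without a listed DGF is not shown to lack one.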

Other observations

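Of the 1648 whole-leaf DGFs outside every whole-leaf DHS on the numbered chromosomes, 1001 lay in a DHS of neither maize tissue. None of the 1648 enters the shares of DHSs with a footprint given above. Off the numbered chromosomes, 46 of 329 whole-leaf DHSs had no bundle-sheath DHS.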
